A study of Mus musculus with 11 samples.

Results

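The Zic genes Zic1, Zic2, Zic4 and Zic5 were compared across the 4 brain regions in which astrocytes were profiled. They were chosen by gene name and make up 4 of the 24421 genes listed per sample. All 4 passed the filter on low counts that left 13875 genes for testing. RNA was sequenced from eGFP+ cells of 16-week-old Aldh1l1-eGFP mice on the C57BL/6 strain, isolated by FACS. The groups were 3 samples from the olfactory bulb (OB), 3 from the hippocampus (HC), 2 from the cortex (CX) and 3 from the brainstem (BS). Every mouse carried the reporter transgene, in which the promoter of the astrocyte gene Aldh1l1 drives eGFP, and the labels give no treatment for any group. The labels do not say whether replicates came from separate mice, so the p-values measure the spread between these samples, which may be technical.

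Zic proteins are C2H2 zinc finger transcription factors of the same superfamily as the GLI effectors of Hedgehog signaling and are the vertebrate relatives of the fly gene odd-paired. They act in the dorsal neural tube, in neural crest and in the midline of the forebrain, and Zic1 and Zic4 are known for their part in the growth of the cerebellum. In the postnatal brain, Zic genes are also known from cerebellar granule neurons, interneurons of the olfactory bulb and cells of the meninges. Each of these cell types was therefore followed through its marker genes beside the Zic values.

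The values are normalized read counts, the number of reads on a gene divided by 1 size factor per sample. Between 2830746 and 14151670 reads per sample lay on genes, and a single read was worth between 0.367 and 2.10 normalized counts. The 2 shallowest libraries were BS replicates 2 and 3. Over all 11 samples 2700 reads fell on Zic1, 1703 on Zic2, 457 on Zic4 and 190 on Zic5, so that counting error is largest for Zic5. A count of 3 reads, taken as the floor, corresponded to between 1.10 and 6.31 normalized counts, which covers counting error only. Astrocyte markers were abundant in every library, with a summed value of 10 markers between 109530 in BS replicate 1 and 654267 in CX replicate 1. The sum was 258523 to 309829 for OB, 282909 to 484983 for HC, 577539 to 654267 for CX and 109530 to 318519 for BS. Much of it came from Slc1a2. All CX sums lay above all others, and OB, HC and BS overlapped. The part of these differences in the Zic values was not tested.

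The 4 genes lie in the genome as 2 head-to-head pairs (GRCm38, GENCODE vM21). Zic1 occupies chromosome 9 from 91358058 to 91365810 on the reverse strand, and Zic4 runs from 91362413 to 91389348 on the forward strand. Their annotated spans share 3398 bases, although only 60 bases are exonic in both genes. Those 60 bases make up 1.05% of the exonic sequence of Zic1. Whether the counting used strand was not stated, and reads in these bases cannot be told apart between the genes. Zic5 occupies chromosome 14 from 122456795 to 122465677 on the reverse strand, followed after 9757 bases by Zic2 from 122475435 to 122479852 on the forward strand. The long noncoding gene 2610035F20Rik between them had normalized counts of 0 to 16.3 over all samples, below Zic2 in every one.

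**Figure D1:**
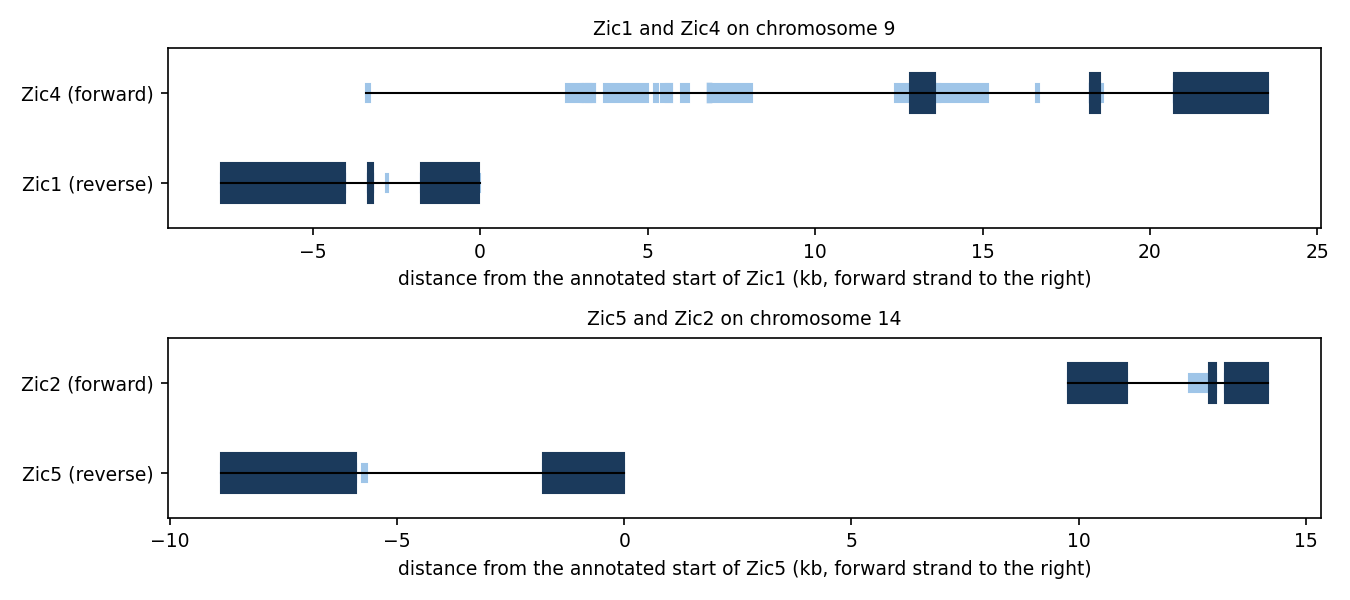
Exon maps of the 2 gene pairs, drawn as distance in kb from the annotated start of Zic1 (top) and of Zic5 (bottom). Dark boxes are exons of the longest coding transcript, pale boxes exons of other annotated transcripts and lines the gene span. The spans of Zic1 and Zic4 overlap by 3398 bases, whereas Zic5 and Zic2 are 9757 bases apart.

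Promoters are shown for the Zic1 and Zic4 pair, the neighbors for which both genes had a promoter sequence. RefSeq (GRCm38.p6) gave a 300-base window, from 250 bases before the start to 50 after, for 3 of the 4 genes, the one without being Zic2. Zic4 has several annotated starts, and its window does not lie at that of its longest coding transcript, which is at 91378642. The stretch of each window before the first exon of a coding transcript is printed 5′ to 3′ on the strand of the gene, with motif matches in capitals. For Zic1 it is chr9:91365811-91366018 (208 bases, reverse strand) and for Zic4 chr9:91368722-91368811 (90 bases, forward strand).
Zic1: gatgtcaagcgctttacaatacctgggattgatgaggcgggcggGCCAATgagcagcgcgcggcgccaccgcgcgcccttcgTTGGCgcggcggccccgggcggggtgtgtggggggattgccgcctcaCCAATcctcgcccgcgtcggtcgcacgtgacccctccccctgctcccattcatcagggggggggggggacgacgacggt
Zic4: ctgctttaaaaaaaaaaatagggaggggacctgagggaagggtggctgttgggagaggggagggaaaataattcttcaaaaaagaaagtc
A set of 5 motifs was searched on both strands of the full windows. The CCAAT box (CCAAT) matched the Zic1 window at 2 places, 205 and 121 bases before the start, and was present in 37.4% of 32851 promoters. The NFI site (TTGGC) matched Zic1 at 2 places, 206 and 168 bases before the start, the first of them overlapping a CCAAT match, and was present in 46.7% of promoters. Zic5 also held 2 NFI sites. None of the 5 motifs matched the Zic4 window, and the GLI site (TGGGTGGTC), a ZIC site (CAGCAGG) and a homeodomain core (TAATTA) matched none of the 3 windows. These occurred in 0.253%, 10.5% and 5.29% of promoters. GC content was 65.3% for Zic1 and 62.7% for Zic5, against 46.0% for Zic4 and a median of 52.7%. The Zic1 window held 31 CpG dinucleotides and that of Zic4 8, with a median of 7 over all promoters.

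Zic1, a transcription factor of the dorsal midline and of cerebellar progenitors, was higher in OB and BS than in HC and CX. Its normalized counts in the OB were 286, 249 and 393 in replicates 1 to 3. In the HC they were 158, 77.6 and 112, and in the CX 62.8 and 81.3. The BS samples had 443, 176 and 286. All OB and BS samples lay above all HC and CX samples, while OB and BS overlapped with each other and HC overlapped with CX. The means were 309 ± 74.5 (SD, n = 3) for OB, 302 ± 134 (SD, n = 3) for BS, 116 ± 40.3 (SD, n = 3) for HC and 72.0 ± 13.0 (SD, n = 2) for CX. In such bulk samples a smaller share of cells that express a gene and less RNA per cell cannot be told apart.

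Zic1 was the 1 gene of the 4 that passed the test of differences among regions, by limma on log2(normalized count + 1) with Benjamini-Hochberg adjustment over all genes (adjusted p = 0.00153). That test called 2285 of the 13875 genes, or 16.5%. The adjusted p stayed between 0.000323 and 0.0106 when single samples were left out, and edgeR gave 0.00211. An exact permutation test of the F statistic for Zic1 alone over 92400 assignments gave p = 0.00838, and the smallest p it allows is 6.494e-05.

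Between region pairs, 4 of 24 tests of the Zic genes passed, and all 4 were of Zic1. OB exceeded CX by 2.07 on the log2 scale (SE 0.37), a 4.20-fold difference with a 95% confidence interval of 2.42 to 7.30 (limma adjusted p = 0.00402, a pair in which 4.91% of genes were called). OB exceeded HC by 1.44 (SE 0.33), or 2.71-fold with an interval of 1.66 to 4.44 (adjusted p = 0.0138, with 7.11% called). CX fell 1.96 below BS (SE 0.37), a 3.90-fold difference (adjusted p = 0.00322, with 10.9% called). HC lay 1.33 below BS (SE 0.33), a 2.52-fold difference (adjusted p = 0.0323, with 4.63% called). These contrasts share samples and are not independent of each other.

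The difference between HC and BS was the least stable of these calls. It was lost when OB replicate 1, HC replicate 2, HC replicate 3, BS replicate 1 or BS replicate 3 was left out, with adjusted p up to 0.154. OB against HC was lost without OB replicate 3 or HC replicate 2 (adjusted p up to 0.0843). Both calls against the CX were lost without CX replicate 1, with adjusted p of 0.0795 for OB and 0.0551 for BS. The log2 differences were then 1.89 for OB minus CX and -1.78 for CX minus BS, and the 1 remaining CX sample was assumed to vary like the other regions. Neighbors in the order of levels that did not pass were OB and BS, with a log2 difference of 0.11 and an interval of -0.60 to 0.82 (adjusted p = 0.883), and HC and CX, with 0.63 and an interval of -0.16 to 1.43 (adjusted p = 0.536).

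**Figure D2:**
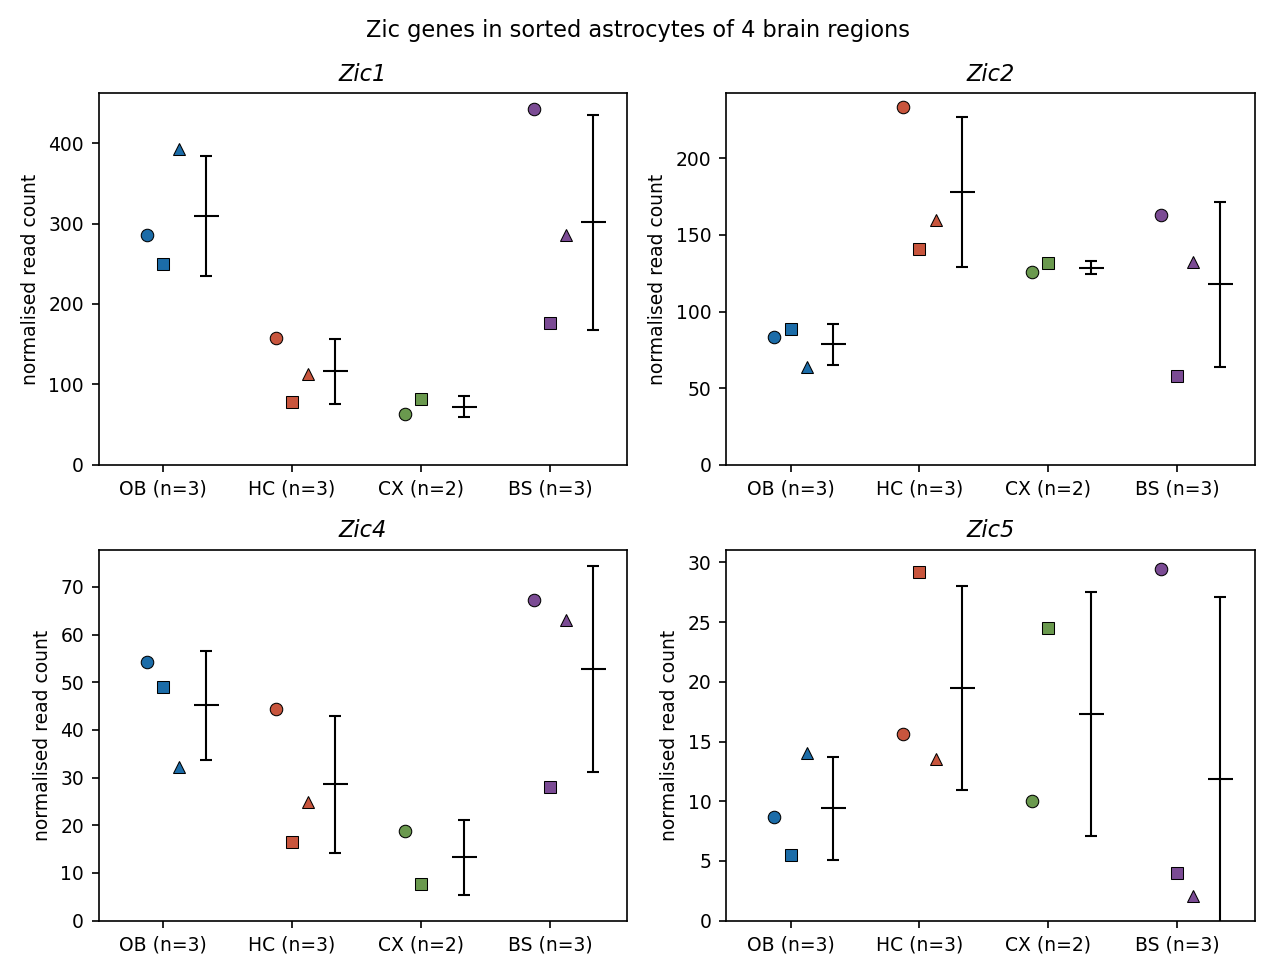
Normalized read counts (linear axes from 0) of the 4 Zic genes in each sample, by region, with the mean and SD beside the points. Circles, squares and triangles are replicates 1, 2 and 3, and the lower SD bar of Zic5 in the BS reaches below 0 and is clipped. For Zic1 the OB and BS samples lie between 176 and 443, above the HC and CX samples at 62.8 to 158.

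Zic2, a forebrain and neural crest regulator in which loss of function is a known cause of holoprosencephaly, had another order of regions. Its normalized counts were 83.6, 88.4 and 63.6 in the OB and 234, 141 and 160 in the HC. The CX samples had 126 and 132, and the BS samples 163, 58.1 and 133. HC lay highest with a mean of 178 ± 49.1 (SD, n = 3) and OB lowest with 78.5 ± 13.2 (SD, n = 3). All OB samples lay below all HC and CX samples, whereas the BS samples overlapped with all other regions. CX and BS had means of 129 ± 4.40 (SD, n = 2) and 118 ± 54.0 (SD, n = 3).

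Zic2 did not pass the test among regions (limma adjusted p = 0.137), and its exact permutation p was 0.114. OB was lower than HC by 1.15 on the log2 scale (SE 0.35), with an interval of -1.90 to -0.40, and limma placed this above the threshold at adjusted p = 0.0636. On recovered reads the same contrast passed with edgeR (adjusted p = 0.0418) and DESeq2 (adjusted p = 0.0135). Without BS replicate 2 the test among regions passed as well (adjusted p = 0.0249), as did OB against HC and OB against BS. Leaving out BS replicate 1 also brought OB against HC past the threshold. Over the samples left out in turn, the adjusted p of OB against HC ranged from 0.011 to 0.228. Other pairs of neighbors did not pass. HC and CX differed by 0.43 (interval -0.41 to 1.27, adjusted p = 0.720), CX and BS by 0.25 (interval -0.58 to 1.09, adjusted p = 0.765) and OB and BS by -0.47 (interval -1.22 to 0.28, adjusted p = 0.432).

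Zic4, the partner of Zic1 on chromosome 9, had lower counts. The OB samples had 54.3, 48.9 and 32.3 and the BS samples 67.3, 28.0 and 63.1. In the HC the values were 44.3, 16.4 and 24.9, and in the CX 18.8 and 7.67. The CX samples lay below every OB and BS sample, and the HC overlapped with all other regions. Means ran from 52.8 ± 21.6 (SD, n = 3) for BS and 45.2 ± 11.5 (SD, n = 3) for OB to 28.6 ± 14.3 (SD, n = 3) for HC and 13.3 ± 7.90 (SD, n = 2) for CX. OB and BS stood above HC and CX here too, with BS first.

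Zic4 did not pass the test among regions (limma adjusted p = 0.105, exact permutation p = 0.0512). CX was lower than BS by 1.94 (SE 0.60), a 3.84-fold difference with an interval on the log2 scale of -3.22 to -0.66 and a limma adjusted p of 0.0510, just over the threshold. DESeq2 placed it under the threshold (adjusted p = 0.0278) and edgeR did not (adjusted p = 0.0751). This contrast was called without HC replicate 1 or BS replicate 2, and the test among regions without BS replicate 2 (adjusted p = 0.0460). OB was 1.78 above CX (SE 0.60, interval 0.50 to 3.06, adjusted p = 0.119). BS and OB differed by -0.16 as OB minus BS (interval -1.30 to 0.99), OB and HC by 0.72 (interval -0.42 to 1.87) and HC and CX by 1.06 (interval -0.22 to 2.34). The CX values rested on 15 and 5 reads.

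Zic5, the partner of Zic2 on chromosome 14, was close to the floor in several libraries. It had normalized counts of 8.69, 5.53 and 14.0 in the OB and 15.6, 29.2 and 13.6 in the HC. The CX samples had 10.1 and 24.5, and the BS samples 29.4, 4.01 and 2.10. BS replicate 1 was the highest of all 11 samples, and the other BS samples, with 2 and 1 reads, were the lowest and at or under their floor of 3 reads. No region was separate from the others. The means were 19.5 ± 8.51 (SD, n = 3) for HC, 17.3 ± 10.2 (SD, n = 2) for CX, 11.8 ± 15.3 (SD, n = 3) for BS and 9.41 ± 4.29 (SD, n = 3) for OB. The Zic2 means had the same order of regions.

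The test among regions gave a limma adjusted p of 0.599 for Zic5 and an exact permutation p of 0.468. HC exceeded BS by 1.32 with limma (SE 0.82, interval -0.44 to 3.07, adjusted p = 0.490), by 0.65 with edgeR and by 0.61 with DESeq2, and did not pass with any of them. OB minus HC was -0.98 with limma (interval -2.74 to 0.77), -1.02 with edgeR and -1.03 with DESeq2, and did not pass either. Neighbors in the order differed by 0.21 for HC and CX (interval -1.75 to 2.17), 1.11 for CX and BS (interval -0.85 to 3.07) and 0.33 for OB minus BS (interval -1.42 to 2.09). The sign of the last is opposite to that of the means, which BS replicate 1 raises, and it was -0.37 with edgeR. These intervals span differences of several fold.

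Over the 4 genes, samples of a region pair did not overlap in 2 of 4 genes for OB and HC, in 3 of 4 for OB and CX and in 2 of 4 for CX and BS. Over all tested genes this held for 25.7%, 37.5% and 38.2%. The count was 1 of 4 for HC and CX, 1 of 4 for HC and BS and 0 of 4 for OB and BS, against 30.7%, 18.0% and 30.1% of genes. The sum of the 4 genes lay between 392 and 503 in the OB and between 217 and 245 in the CX, which did not overlap. It was 264 to 452 for HC and 266 to 702 for BS.

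**Figure D3:**
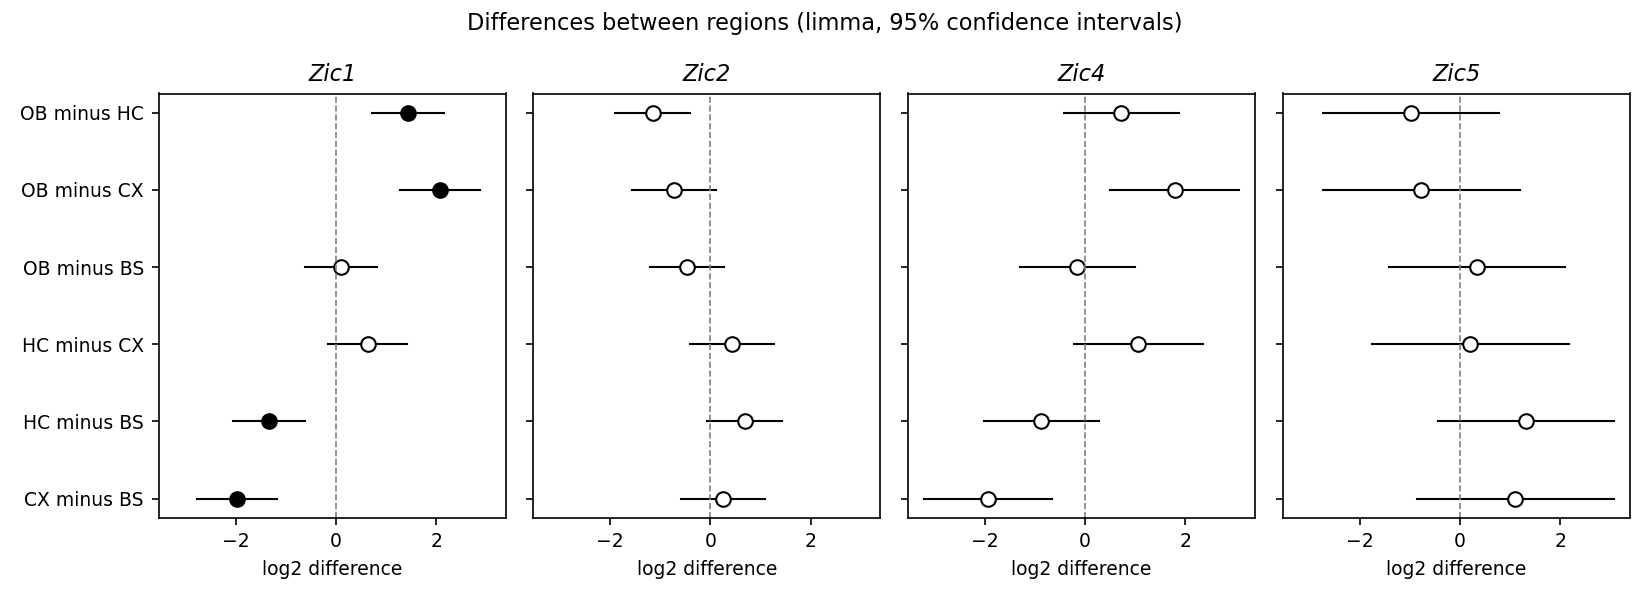
Log2 differences between region pairs for each Zic gene (points, limma) with 95% confidence intervals (lines). Filled points passed an adjusted p of 0.05, and the dashed line marks no difference. The 4 filled points are all Zic1, between -1.96 and 2.07, and the intervals of Zic5 are the widest.

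Each region was also set against the other 3 regions pooled. By limma, 0 of the 4 Zic genes passed an adjusted p of 0.05 in any of the 4 regions, and edgeR and DESeq2 gave 0 as well. Of all genes, 4.58% were called for OB, 0.0% for HC, 0.0144% for CX and 5.42% for BS. At an unadjusted limma p under 0.05, Zic1 and Zic2 passed in the OB, Zic2 in the HC, Zic1 and Zic4 in the CX and 0 genes in the BS. Zic1 was 1.10 higher in the OB (SE 0.49, adjusted p = 0.263) and differed by -1.56 in the CX (SE 0.53, adjusted p = 0.356), and Zic4 differed by -1.59 in the CX (SE 0.54, adjusted p = 0.355). Zic2 was 0.79 lower in the OB (SE 0.32, adjusted p = 0.209) and 0.79 higher in the HC (SE 0.32, adjusted p = 0.838).

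Thresholds after the study's methods (unadjusted p under 0.01, fold change over 1.5 and 2 or more replicates with a value over 5) were applied as an alternative added after the data were seen. The limit of 5 was set on normalized counts, which sum to 4615813 to 7030687 per sample and are not RPM, and the replicates had to belong to the same region, which the methods do not state. With limma they selected 0 Zic genes, against 8.04% of all genes for OB, 1.28% for HC, 2.77% for CX and 9.03% for BS. With DESeq2 they selected Zic2 in the OB, where it was lower and 10.7% of genes were selected. In the CX they selected Zic1 and Zic4, both lower, with 4.26% of genes selected. In HC and BS 0 Zic genes were selected with either tool, against 3.02% and 10.3% of genes with DESeq2.

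Levels were set between genes as normalized counts per kb of the longest coding transcript (5606 bases for Zic1, 2440 for Zic2, 3891 for Zic4 and 4767 for Zic5). In the OB, Zic1 had the highest mean level per kb at 55.2, followed by Zic2 at 32.2, Zic4 at 11.6 and Zic5 at 1.97. In the HC, Zic2 led with 72.9 and Zic1 had 20.7, and in the CX the levels per kb were 52.8 and 12.9. In the BS, Zic1 and Zic2 stood at 53.8 and 48.3. The most abundant of the 4 transcripts per length therefore changed from Zic1 in the OB to Zic2 in HC and CX.

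The ratio of Zic1 to Zic2 within a library does not depend on the size factor. Per kb, it was 1.49, 1.23 and 2.69 in OB replicates 1 to 3 and 1.18, 1.32 and 0.940 in the BS. It was 0.294, 0.240 and 0.306 in HC replicates 1 to 3 and 0.218 and 0.268 in the CX. The OB and BS ratios were all above the HC and CX ratios, while OB overlapped with BS and HC with CX. With the merged length of all annotated exons in place of the longest transcript, the BS ratios were 1.09 to 1.54 and the HC and CX ratios 0.253 to 0.356. No test was run on these ratios, which were examined after the single-gene values were known.

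Zic1 against Zic4 did not separate OB and BS from HC and CX. The ratio per kb ran from 3.54 to 8.43 for OB, 2.47 to 3.28 for HC, 2.31 to 7.36 for CX and 3.15 to 4.57 for BS. All OB ratios lay above all HC ratios, and every other pair of regions overlapped. The scale of this ratio depends on the annotation, because Zic4 has 12 annotated transcripts whose merged exons cover 10335 bases. With merged exons, Zic4 in the CX had 1.28 normalized counts per kb and Zic5 3.54, while with the longest transcripts they had 3.41 and 3.63.

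**Figure D4:**
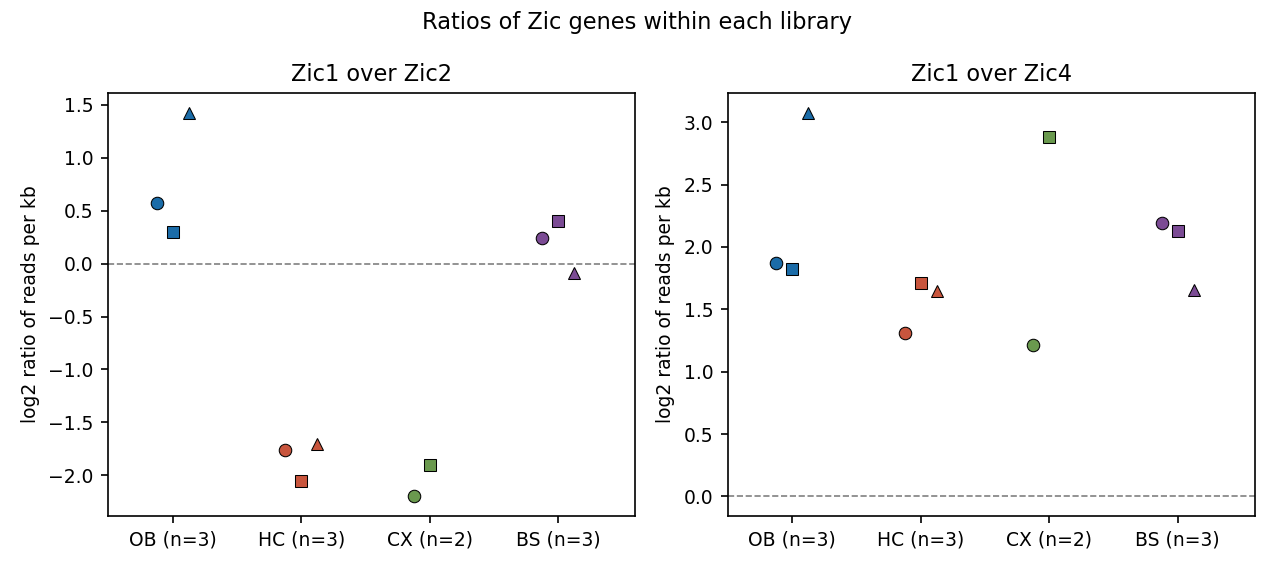
Log2 ratio of reads per kb of the longest coding transcript within each library, for Zic1 over Zic2 (left) and Zic1 over Zic4 (right). The dashed line marks equal levels, and symbols are replicates as in the plot of counts by sample. Zic1 over Zic2 lies below the line in all HC and CX libraries, at ratios of 0.218 to 0.306, and near or above it in OB and BS, at 0.940 to 2.69.

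Markers of cell types that are known to use Zic genes were present in the sorted samples. The 14 markers of olfactory bulb interneurons summed to 2241 to 2671 for OB, 687 to 755 for HC, 1250 to 1345 for CX and 779 to 956 for BS. Gad1, which makes GABA, was 301 to 473 for OB and at most 67.3 elsewhere. Sp8, an interneuron transcription factor, was 242 to 278 for OB and at most 4.60 elsewhere. Of 13 tested markers, 9 were higher in OB than in HC, 5 than in CX and 8 than in BS, against 7.11%, 4.91% and 15.0% of all genes called in either direction. Markers such as Sp8 that are near 0 outside the OB could pass the count filter through the OB alone, so these counts are a description. Zic1 was high in the OB libraries, which had the highest interneuron sums, and in the BS libraries. The BS interneuron sums lay above all HC sums and below all CX sums. The part of these cells in the Zic1 values was not tested.

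The 16 markers of meningeal and perivascular fibroblasts summed to 741 to 945 for OB, 528 to 728 for CX, 2161 to 4652 for HC and 1927 to 9687 for BS. BS replicate 1 had the highest sum, with Dcn, a proteoglycan of fibroblasts, at 1667 against 2.51 to 299 in the other samples. The same library had the highest value of all samples for Zic1, Zic4 and Zic5. Without it the test among regions still called Zic1 (limma adjusted p = 0.00180), while HC against BS was no longer called, at a log2 difference of -1.01. Of 16 fibroblast markers, 6 were lower in CX than in BS, where 10.9% of all genes were called, 3 were lower in HC than in BS (4.63%) and 2 in OB than in BS (15.0%). Only Igf2, lower in OB than in HC (7.11%) and higher in HC than in CX (1.23%), was called in those pairs. Igf2, which choroid plexus also expresses, made up much of both the HC and the BS sums, with a mean of 2472 in HC samples against 227 in OB samples. Without it, in an alternative added after the data were seen, the sum was 511 to 746 for OB, 291 to 1224 for HC, 147 to 374 for CX and 757 to 3591 for BS. All OB and BS samples then lay above the CX samples, as for Zic1, and HC overlapped with all other regions. The part of fibroblasts in the Zic values was not tested.

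Cerebellar granule neuron markers were detected in the BS. Gabra6, a receptor subunit of these neurons, was at 0 in all OB, HC and CX samples and at 10.5, 18.0 and 61.0 in the BS. Cbln3 was 4.21, 16.0 and 194 in the BS and at most 1.83 elsewhere. Both were highest in BS replicate 3, in which Zic1 lay between the other BS samples. The summed value of the 8 markers was 50.5 to 444 for BS, 64.1 to 209 for OB, 108 to 227 for HC and 150 to 221 for CX, since Slc17a7, which other neurons share, was part of it. Atoh1, the marker of granule cell progenitors, was at 0 in all 11 samples. The part of granule neurons in the BS values was not tested.

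Choroid plexus markers, led by the transthyretin gene Ttr, separated the regions differently from Zic1. Their sum was 90.0 to 163 for OB, 1818 to 5113 for CX, 72826 to 147800 for HC and 52676 to 248828 for BS. All 10 were lower in OB than in HC and than in BS. Within HC and BS, however, the choroid plexus sum ordered the samples as Zic1 did. From highest to lowest, the BS sums were 248828, 120825 and 52676, beside Zic1 at 443, 286 and 176 in the same samples. The HC sums were 147800, 138075 and 72826, beside 158, 112 and 77.6. Within OB and within CX the orders differed. The fibroblast sum with Igf2 also ordered the HC and BS samples as Zic1 did. It was 9687, 3618 and 1927 in BS replicates 1, 3 and 2, and 4652, 2552 and 2161 in HC replicates 1, 3 and 2. Its order matched Zic1 in the CX as well and differed in the OB. Without Igf2 the fibroblast order in the HC differed from that of Zic1. Zic2 and Zic4 had the same order of samples as Zic1 within HC and BS. BS replicate 1, the highest sample for Zic1, had the highest choroid plexus and ependymal sums. Oligodendrocyte markers summed to 8897 to 15060 for OB and 51291 to 88086 for BS, so that the regions with high Zic1 were at opposite ends of this sum as well. The summed 6 oligodendrocyte precursor markers split as Zic1 did, at 1573 to 1750 for OB and 1333 to 2701 for BS, above 1000 to 1213 for HC and 950 to 1105 for CX. Of the 6, only Sox10 was higher in OB than in HC (7.11% of all genes called) and 0 were called in OB against CX (4.91%). Only Olig1 was lower in HC than in BS (4.63%) and in CX than in BS (10.9%). The part of choroid plexus cells, oligodendrocytes and their precursors in the Zic1 values was not tested. The remaining marker lists were pan-neuronal, at 1504 to 4542 over all samples, neuroblast, at 409 to 1310, ependymal, at 65.3 to 843, and olfactory ensheathing, at 2961 to 16369. Olfactory sensory neuron markers summed to 199 to 845, microglial markers to 1236 to 4272 and endothelial and pericyte markers to 673 to 4070.

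**Figure D5:**
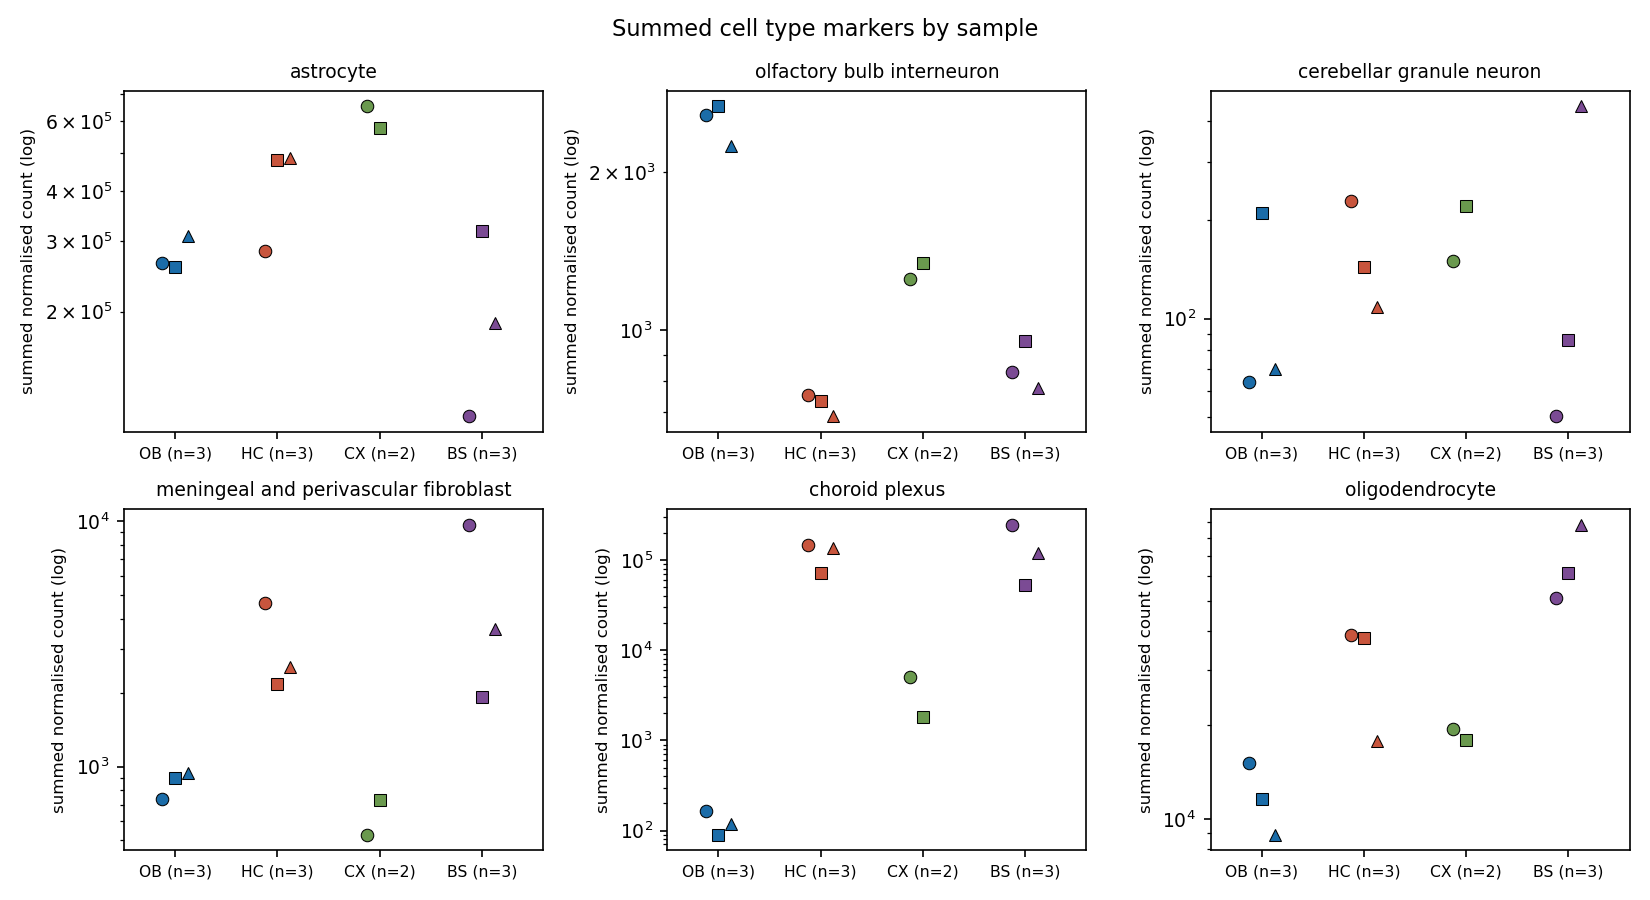
Summed normalized counts of 6 lists of cell type markers in each sample (log axes), by region, with symbols for replicates as in the plot of counts by sample. The interneuron sum is highest in the OB at 2241 to 2671, the fibroblast sum is highest in BS replicate 1 at 9687, and the choroid plexus sum is 90.0 to 163 for OB and at least 52676 in all HC and BS samples.

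Genes that work beside Zic proteins were followed as a list of 9 GLI and GLIS relatives and Zic-binding proteins, 7 of them tested. Among regions 2 passed, against 16.5% of all genes. Gli3, a mainly repressive GLI factor, was 460, 533 and 815 in the OB and 776, 999 and 1127 in the HC. It was 1501 and 1427 in the CX and 300, 447 and 537 in the BS. The CX samples lay above all others, and the log2 difference of CX over BS was 1.81 (SE 0.27, limma adjusted p = 0.000526). Mdfic, related to the inhibitor of MyoD family that can bind Zic proteins, was lower in CX than in BS by 1.90 (SE 0.45, adjusted p = 0.0131) and lower in OB than in BS by 1.99 (SE 0.40, adjusted p = 0.00334). Gli1, Gli2, Glis2, Glis3 and Sufu did not pass among regions. The median difference of the list was 0.03 for CX minus BS and -0.11 for OB minus BS, beside -0.03 and 0.02 over all tested genes.

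Of 11 genes known from other work as Zic targets, 7 were tested and 5 passed among regions, against 16.5% of all genes. Foxd3 could pass the count filter through the OB alone and Pax3 through the BS alone, where they are high, so the count is a description. Apoe, the main lipid carrier of astrocytes, was 26494 to 29075 for OB and 7785 to 16624 for BS, and higher in OB than in BS. Ephb1, a guidance receptor whose retinal expression follows Zic2, was 27.2, 39.5 and 72.7 in the OB and 94.6, 50.1 and 73.7 in the BS. It was 241, 333 and 311 in HC samples and 666 and 492 in CX samples. All OB and BS samples lay below all HC samples, and these below the CX, and HC exceeded OB by 2.74 (SE 0.34, limma adjusted p = 0.000120). Foxd3, a neural crest factor, was 40.2, 40.3 and 63.6 in the OB, at 0 in all HC and CX samples and 1.05, 2.0 and 10.5 in the BS. Pax3 and Msx1, which the next list also holds, passed too, and Ccnd1 and Snai2 did not.

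Dorsal neural tube patterning genes were a list of 22, of which 11 were tested and 7 passed among regions, against 16.5% of all genes. Genes such as Pax3 could pass the count filter through the BS alone, where they are high, so the counts are a description and no median is given. En2, Irx3, Irx5, Lmx1a, Msx1, Pax3 and Wnt8b were all lower in CX than in BS and in OB than in BS, pairs in which 10.9% and 15.0% of all genes were called. Pax3, a dorsal determinant, was 43.1, 30.1 and 27.4 in the BS and at 0 in every other sample. Lmx1a, a roof plate factor, was 128, 102 and 86.3 in the BS, 41.2, 21.0 and 28.6 in HC samples, 12.6 and 4.60 in CX samples and 0 in all OB samples. Zic1 and these genes were thus alike in lower CX than BS values and unlike in the OB. Choroid plexus also expresses Lmx1a, and its marker sums, given above, were high in HC and BS. The part of choroid plexus in these values was not tested.

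The genes most like each member were taken by Pearson correlation on log2(normalized count + 1) over the 11 samples among 13605 genes outside the family with a mean value over 5. These points share library depth and regional makeup, and the correlations are descriptions. Zic1 was most like Cobll1 (r = 0.945), followed by Mmp19, a matrix metalloproteinase, Tgds and Pld1, a phospholipase (r = 0.926). For Zic2 the nearest were Timp2, an inhibitor of metalloproteinases (r = 0.931), Tub, the hexokinase gene Hk2 and Msn (r = 0.900). Zic4 was nearest to Nabp1 (r = 0.918), 2510039O18Rik, the mitochondrial carrier Slc25a13 and Stk32a (r = 0.908). For Zic5 they were Lzts3 (r = 0.910), the collagen gene Col5a1, Gin1 and Zfp628 (r = 0.844). No gene was among the nearest 4 of 2 members.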

How the data were processed

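RNA from sorted Aldh1l1-eGFP+ cells was made into libraries from 5 ng with the NuGEN Trio kit. Per the labels and the study's methods, the authors mapped reads to mm10 with STAR 2.5.0a, counted them on UCSC transcripts and normalized with DESeq2 1.20.0. The deposited unit is a normalized signal, the count divided by 1 size factor per sample, and 100% of non-zero values were whole multiples of 1 read (tolerance 0.001 reads), so that whole reads were recovered.

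Groups follow the region in the labels. Regions were tested with limma 3.58.1 in R 4.3.3, a mean-variance trend and values taken as log2(value + 1). This test was two-sided, covered genes that passed filterByExpr of edgeR on recovered reads, was adjusted over all genes by Benjamini-Hochberg and was tested on simulated data. Exact permutation tests were run for single genes. Alternatives were edgeR 4.0.16 and DESeq2 1.42.0 on recovered reads, pseudocounts of 0.25 and 5, no filter, no trend, TMM scaling, a replicate block, leaving out each sample and thresholds after the study's. Python 3.11.15 was used for tables and matplotlib 3.10.9 for plots. No library was a duplicate of another. Named genes are the members, 4 nearest genes each by correlation and the members of the lists. Members, lists and tests were chosen with earlier results of these data known. Items withheld from this work are not reported here.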

Additional observations from a re-analysis of the deposited data

How the results depend on the processing

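Zic1 was called among regions under every alternative run. The number of Zic genes called among regions was 1. Leaving out 1 sample at a time gave 1 to 3, with 3 (Zic1, Zic2 and Zic4) without BS replicate 2. For OB against the other regions pooled the count was 0, between 0 and 1 over the samples left out (1, Zic2, without BS replicate 2), and 1 with thresholds after the study's and DESeq2. For CX it was 0, and 2 with thresholds after the study's and DESeq2. The 4 calls between region pairs became 2 without the mean-variance trend, which lost Zic1 in OB against HC and HC against BS. They ranged from 2 to 7 over the samples left out, with 2 without HC replicate 2 or CX replicate 1 and 7 without BS replicate 2, and edgeR gave 5 and DESeq2 6. The causes were not tested.

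Some differences that were never called changed sign when a sample was left out. OB minus BS ranged from -0.23 to 0.43 for Zic1, from -0.55 to 0.065 for Zic4 and from -0.33 to 1.32 for Zic5. HC minus CX ranged from -0.39 to 0.81 for Zic5 and CX minus BS from -0.19 to 0.55 for Zic2. OB minus BS for Zic5 was also -0.37 with edgeR and -0.41 with DESeq2. As CPM rescaled to the mean sum, Zic2 in the CX was 105 in place of 129. TMM scaling moved the median of all genes by less than 0.1 on the log2 scale in each contrast.

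With the replicate number as a block, 5 pair tests were called in place of 4, the added 1 being Zic4 in CX against BS, and 1 gene was called among regions. It changed no other call. The labels do not tie the numbers to a mouse or a day, and the numbers were not taken as pairs, since not every pair correlated over 0.1. Deviations from the region means of 15 same-numbered pairs correlated between -0.16 and 0.25, with 3 over 0.1, and 7 of 11 samples correlated best with their own number.

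Depth limits Zic5 most, with 1 to 37 reads per sample, and the CX has 2 samples.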
